A study of Mus musculus with 24 samples.

Results

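Genes proposed in the literature as candidates in the chromosome regions that carry NOD diabetes susceptibility were read across B cell development in NOD and B6 mice. The 8 genes were Ptpn22, Vav3, Tnfrsf9, Slc11a1, Fcgr1, B2m, Nfkbid and Cd101, chosen by name. Every probe set annotated to only 1 of these genes was taken, a probe set being the group of short probes that reports 1 transcript region. That gave 13 probe sets for 7 of the 8 genes, out of 45037 probe sets and 18193 genes. Vav3 and Tnfrsf9 had 3 probe sets each, B2m and Fcgr1 had 2 each, and Ptpn22, Slc11a1 and Nfkbid had 1 each. Cd101, which encodes an inhibitory surface protein of immune cells, was not analysed here because none of the annotated probe sets was its own.

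The samples came from female mice aged 7 weeks, either NOD/ShiLtJ (NOD), which develop diabetes without treatment, or C57BL/6/J (B6), which do not. Spleen cells of 8 mice were pooled, T cells and CD11b-bearing myeloid cells were removed, and what was left was sorted by flow cytometry into T1, T2FO, T3, FO, T2MZ and MZ B cells. T1, T2FO, T3 and T2MZ are transitional stages, FO the mature follicular cells and MZ the mature marginal zone cells. A second, independent experiment gave the other sample of each group, hence 12 groups of 2 arrays from 4 pools. The values are log2 values centred on each probe set's median over the 24 arrays, so a value of 0 is that probe set's own midpoint and not absence, and no level can be compared between genes.

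The NOD mouse carries many insulin-dependent diabetes (Idd) regions, and in most of them the responsible variant is not settled. Several candidates act where B cells present antigen or receive signals: Ptpn22 and Vav3 sit in antigen receptor signalling, B2m carries MHC class I to the surface, and Nfkbid acts on NF-kB. Slc11a1 and Fcgr1 are known mainly from macrophages and related phagocytes, and Tnfrsf9 from activated lymphocytes.

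The upstream sequence of 3 members is shown first, Ptpn22 and Slc11a1 because they gave the calls within subsets and B2m because of its promoter elements, 250 bases before the annotated start, from RefSeq on GRCm38.p6, which is the B6 sequence. Capitals mark matches, on either strand, to the core of the myeloid and B cell factor PU.1 (GAGGAA), to an NF-kB pattern (GGG and CC with any 5 bases between them) or to an interferon response element pattern (GAAA and GAAA with any 2 bases between them).
Ptpn22 first start, chr3:103859545-103859794, plus strand: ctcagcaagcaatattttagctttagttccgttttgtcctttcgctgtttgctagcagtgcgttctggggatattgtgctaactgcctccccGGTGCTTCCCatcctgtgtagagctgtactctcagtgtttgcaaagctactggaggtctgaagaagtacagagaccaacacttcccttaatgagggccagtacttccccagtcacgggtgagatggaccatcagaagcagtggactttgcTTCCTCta
Ptpn22 second start, chr3:103860027-103860276, plus strand: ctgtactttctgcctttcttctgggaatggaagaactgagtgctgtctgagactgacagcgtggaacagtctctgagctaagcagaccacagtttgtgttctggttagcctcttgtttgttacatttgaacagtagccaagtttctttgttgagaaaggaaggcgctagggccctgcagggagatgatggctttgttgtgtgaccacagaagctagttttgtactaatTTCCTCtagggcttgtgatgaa
Slc11a1, chr1:74374953-74375202, plus strand: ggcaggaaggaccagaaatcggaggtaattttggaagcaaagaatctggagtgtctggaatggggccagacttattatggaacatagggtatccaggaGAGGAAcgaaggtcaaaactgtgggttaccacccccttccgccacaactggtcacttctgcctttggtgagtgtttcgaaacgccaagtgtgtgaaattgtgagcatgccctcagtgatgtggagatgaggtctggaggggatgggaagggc
B2m, chr2:122147437-122147686, plus strand: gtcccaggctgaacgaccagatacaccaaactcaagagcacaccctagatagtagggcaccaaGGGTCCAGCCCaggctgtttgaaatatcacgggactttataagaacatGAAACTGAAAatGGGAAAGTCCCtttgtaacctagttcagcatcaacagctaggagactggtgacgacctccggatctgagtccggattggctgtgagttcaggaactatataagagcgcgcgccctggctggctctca
The PU.1 core stood once in each Ptpn22 window and once in the Slc11a1 window, and the first Ptpn22 window also held an NF-kB match. B2m, the invariant partner of MHC class I, was the 1 of 8 genes with the interferon pattern, and an NF-kB match stood just downstream of it. Of 32851 promoter windows of this length 23.3% held the PU.1 core, 45.8% the NF-kB pattern and 2.98% the interferon pattern. Of the 8 genes 5 had a PU.1 core and 6 an NF-kB match in any of their windows. Vav3, Nfkbid, Tnfrsf9 and Ptpn22 have several annotated starts. The gene counts therefore cannot be set against the shares of single windows. A match is a run of letters and not a binding site.

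A pair of facts about the arrays touch the values that follow. The subset labels of NOD go against the sort transcripts. Cd93, the marker of transitional cells, was at 3.14 and 2.98 in B6 T1 but at -2.04 and -2.14 in the NOD arrays labelled T1, which in turn held the highest S1pr3 (3.67 and 3.77) and Tlr3 (4.83 and 4.68), transcripts typical of marginal zone cells. Cd93 was also lower in NOD over all subsets (1456046_at, -2.26 ± 0.09, limma adjusted p = 0.00873), and within NOD the arrays labelled T1 were lowest. Among NOD groups the one labelled T2FO had the lowest mean Cr2 (-1.29) and the highest mean Cd93 (0.21). In B6 that group was T1 (-1.72 and 3.06). NOD groups are therefore called by their label only. The beta-actin control at the 5' end of the transcript lay between -4.04 and -3.27 in 6 B6 arrays (replicate 1 of FO and MZ, replicate 2 of T1, T2FO, T3 and T2MZ), between -1.36 and 0.47 in the other 6 B6 arrays and between -0.54 and 0.79 in NOD, while its 3' end stayed between -0.37 and 0.21 throughout. With centred values the presence of B cell transcripts could not be checked as a level. The mean of 5 measured B cell genes (of 6 listed) was between -0.81 and -0.26 in the B6 groups. In the NOD groups it was between 0.03 and 0.28. By array it lay between -1.03 and -0.61 in the 6 B6 arrays low in the 5' control. In the other 6 B6 arrays it lay between -0.73 and 0.10. Its part in the strain differences was not tested. In sorted bulk cells, fewer cells of a type and less RNA per cell cannot be told apart.

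Averaged over the 6 subsets, 1 of the 13 probe sets differed between NOD and B6 (Vav3, lower in NOD), where 3.02% of all probe sets did (limma fitted to 4 pool means, adjusted p by Benjamini-Hochberg under 0.05). A count of 1 is not read as a property of these genes. Their median difference was -0.04 log2 units against -0.03 for all probe sets. In no member did the 12 NOD arrays lie wholly above or below the 12 B6 arrays, which 2.4% of all probe sets showed. Within labelled subsets the calls were Ptpn22 in T1 (1 of 13, against 6.31% of all probe sets) and in T2FO (1 of 13, against 2.58%) and Slc11a1 in FO (1 of 13, against 2.88%). None was called in T3 (background 1.72%), T2MZ (2.73%) or MZ (2.52%), where limma gave 2, 0 and 1 members an unadjusted p under 0.05.

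**Figure D1:**
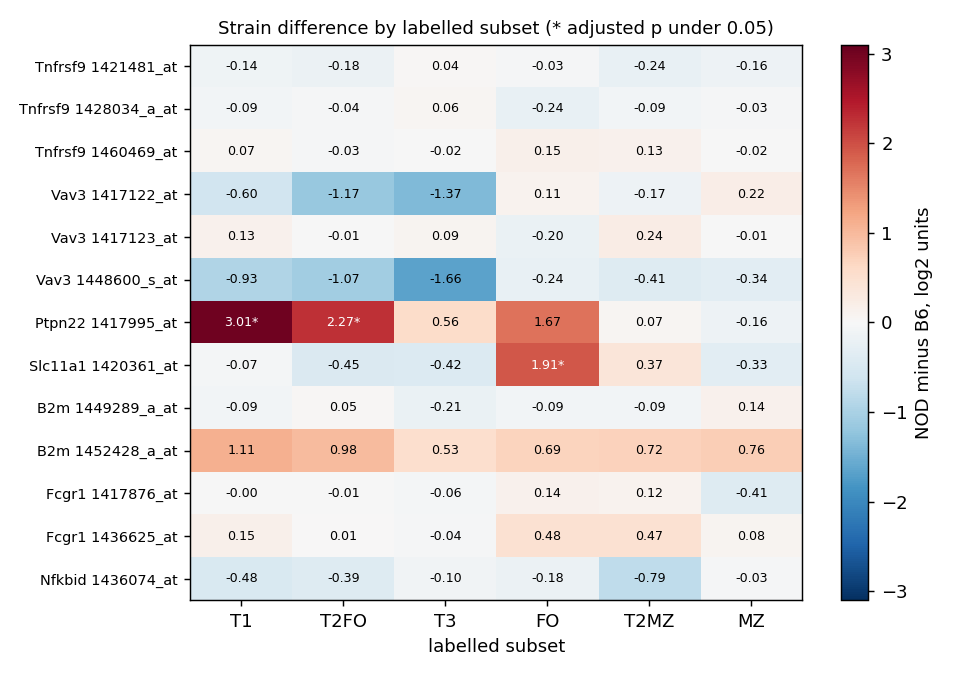
The colours and printed numbers give the NOD minus B6 difference in log2 units for the 13 probe sets (rows) in the 6 labelled subsets (columns), from the limma fit over 12 groups, and a star marks an adjusted p under 0.05. Ptpn22 reached 3.01 in T1 and 2.27 in T2FO and Slc11a1 reached 1.91 in FO, while the 3 Tnfrsf9 probe sets stayed between -0.24 and 0.15.

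Ptpn22 encodes a tyrosine phosphatase that restrains antigen receptor signalling, and its human counterpart carries a well-known autoimmune risk variant. In B6 its signal was lowest in T1 (-1.90 and -0.85) and T2FO (-1.77 and -0.79). It was -1.34 and 0.14 in B6 T3, -0.97 and -0.50 in B6 FO, and -0.76 and -0.14 in B6 T2MZ. B6 MZ cells stood clear above all other B6 arrays at 0.99 and 1.08. In NOD the arrays labelled T1 were highest, at 1.78 and 1.50. Those labelled T2FO gave 0.67 and 1.31, those labelled FO 0.59 and 1.28, and those labelled MZ 0.97 and 0.78. The NOD arrays labelled T3 (0.18 and -0.26) and T2MZ (-0.56 and -0.20) were the low ones of that strain.

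Ranked by mean and SD of 2 arrays, the 12 groups ran from NOD labelled T1 (1.64 ± 0.19) through B6 MZ (1.03 ± 0.06), NOD T2FO (0.99 ± 0.46), NOD FO (0.94 ± 0.49) and NOD MZ (0.87 ± 0.13) to NOD T3 (-0.04 ± 0.31). Below these came NOD T2MZ (-0.38 ± 0.26), B6 T2MZ (-0.45 ± 0.44), B6 T3 (-0.60 ± 1.05), B6 FO (-0.74 ± 0.34), B6 T2FO (-1.28 ± 0.69) and B6 T1 (-1.37 ± 0.74). From B6 MZ to NOD MZ, and again from NOD T3 down to B6 T1, each group overlapped its neighbour in this order. NOD labelled T1 lay above B6 MZ in both arrays, and NOD MZ above NOD T3 in both. By mean, NOD labelled T1 and B6 MZ, the 2 groups highest in S1pr3 and Tlr3, were thus the 2 highest for Ptpn22. B6 MZ overlapped NOD T2FO and NOD FO, whose mean Tlr3 was low (-0.44 and -0.17). NOD MZ, next in both S1pr3 (1.88) and Tlr3 (1.91), came after these 2 groups for Ptpn22.

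**Figure D2:**
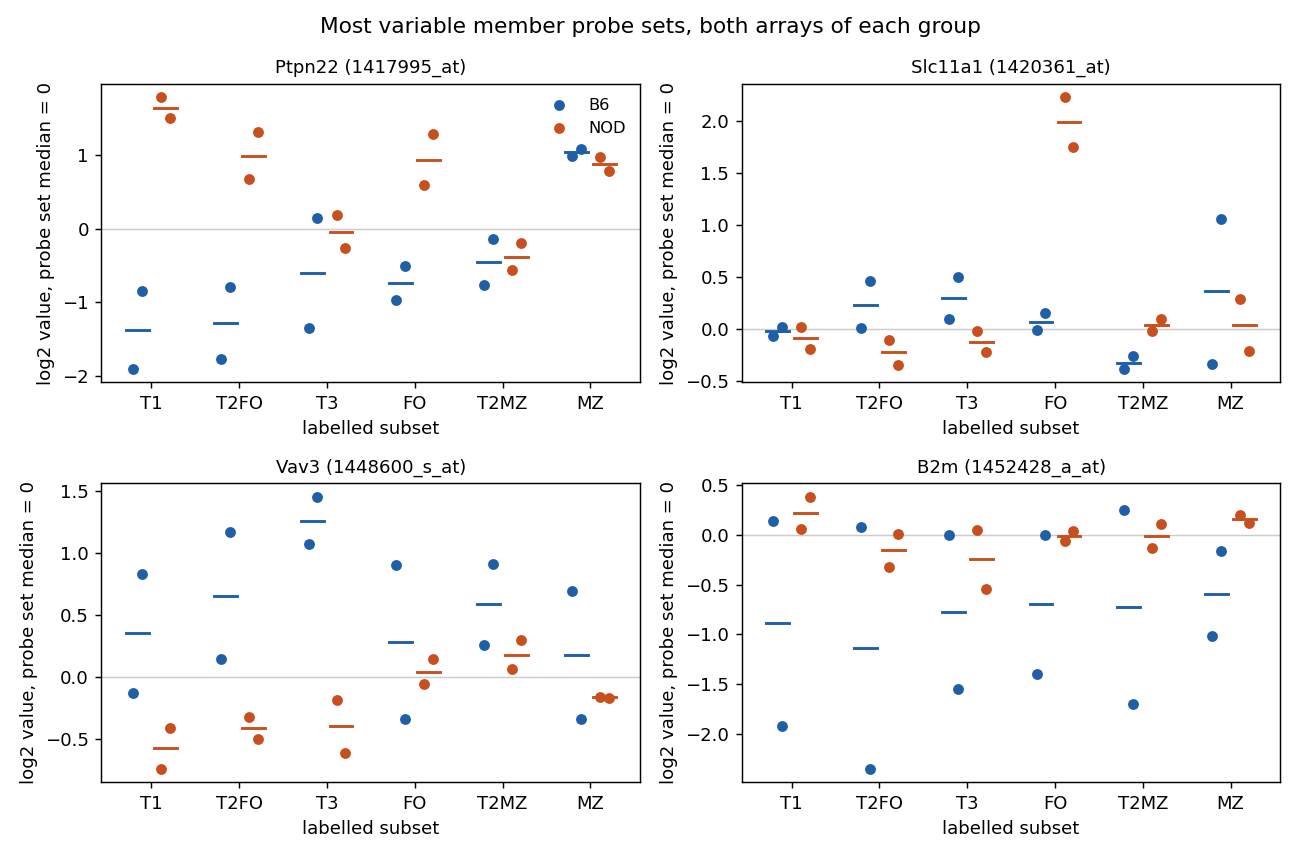
Each point is 1 array of B6 (blue) or NOD (orange) and each bar the mean of 2, on the centred log2 scale, by labelled subset, for the most variable probe sets of Ptpn22, Slc11a1, Vav3 and B2m. Ptpn22 separates the strains in T1, T2FO and FO but not in T2MZ, Slc11a1 stands out at 2.23 and 1.75 in NOD FO, and the low B2m points are 6 B6 arrays.

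In the comparison of like-labelled groups, Ptpn22 was higher in NOD by 3.01 ± 0.47 log2 units in T1 (SE from limma, 95% interval 2.01 to 4.01, adjusted p = 0.000988) and by 2.27 ± 0.47 in T2FO (adjusted p = 0.0172). In T2FO the mean of 5 plasma cell genes was 1.80 and 2.37 in the NOD arrays, the highest of all 24, and -0.43 and 0.21 in B6, and their part in the Ptpn22 difference was not tested. The T2FO call was lost without B6 replicate 1 (1.78, adjusted p = 0.152) or NOD replicate 2 (1.95, adjusted p = 0.189). With only the arrays compared in the fit, adjusted p was 0.0607 in T1 and 0.287 in T2FO (limma). In FO the arrays of the strains lay apart, but groups of 2 arrays separate easily. The share of all probe sets doing so was not counted. The difference of 1.67 ± 0.47 there missed the threshold (limma, adjusted p = 0.0762). It passed in 4 of 12 alternatives, namely quantile normalization (adjusted p = 0.0122), the 5' control as a covariate (0.014), the replicate block (0.0265) and the pool as a random block (0.0475). That replicate block was shared by both strains, which the replicate numbers do not pair. In T3 the difference was 0.56 ± 0.47 (limma, adjusted p = 0.827), in T2MZ 0.07 ± 0.47 (0.984) and in MZ -0.16 ± 0.47 (0.956). Because the NOD label T1 goes with marginal zone transcripts, a part played by cell identity in the T1 value was not tested.

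Averaged over subsets, which does not depend on the NOD labels, Ptpn22 was at -0.96 and -0.18 in the B6 pools and at 0.60 and 0.74 in the NOD pools. The pools lay apart, but 2 against 2 pools separate easily, and the share of all probe sets doing so was not counted. The difference of 1.24 ± 0.28 (95% interval 0.49 to 1.98) missed the threshold (limma, adjusted p = 0.107). Leaving out a pool leaves 1 in its arm, taken to vary as the other strain does. Without B6 replicate 1 or 2 the difference was 0.85 and 1.63 and passed (adjusted p = 0.038 and 0.0109), with the spread taken from the close NOD pools and 3433 and 2608 of all probe sets called. Without NOD replicate 1 or 2 it was 1.31 and 1.17 and did not pass (adjusted p = 0.395 and 0.382), as 0 of all probe sets did (limma, with 5120 and 5762 at an unadjusted p under 0.05). It was positive under the 16 alternatives run, from 0.85 to 3.74, and passed in 5 of them. All 5 of those fits called more of all probe sets than the 1361 called from the 4 pool means. The count was 8925 with 24 arrays taken as independent and 5628 with the pool as a random block. It was 9786 without the 6 B6 arrays lowest in the 5' control. Those passes are therefore not read as a property of Ptpn22. Beside the 5' control, Ptpn22 averaged -0.27 in the 6 B6 arrays lowest in it and -0.86 in the other 6, and r with the 5' minus 3' control was -0.10 over 12 B6 arrays and 0.38 over all 24, which share pools. Without the 6 low arrays the strain difference was 1.53 (adjusted p = 0.00969, from the 18 arrays left, taken as independent, as in every value without those 6), and with the control as a covariate it was 3.74 (adjusted p = 0.108). The part of RNA quality in it was not tested further. Leaving out the T1 groups, which does rest on the NOD label T1, gave 0.88 (limma, adjusted p = 0.142).

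Whether the B6 subsets differed at all was asked with an F test of limma. None of the 13 probe sets was called (background 1.41%, and 1 member at an unadjusted p under 0.05), and Ptpn22 came nearest with a range of group means of 2.41 and adjusted p = 0.0863. Replicate 2 exceeded replicate 1 for Ptpn22 in all 6 B6 subsets. The replicate block takes same-numbered arrays to deviate alike. Over all probe sets, B6 FO and MZ ran opposite to the other B6 subsets (r from -0.62 to -0.368). With that block Ptpn22 was called (limma F test, adjusted p = 0.00744). Over 19 alternatives its adjusted p ran from 0.00744 to 0.662 and passed in 5, among them without B6 T3 replicate 1 (0.0254) or 2 (0.0282). B6 MZ exceeded B6 FO in Ptpn22 by 1.77 ± 0.47 (adjusted p = 0.168, or 0.0197 with the replicate block), and none of the 13 was called there (0.564% of all probe sets, 1 member at an unadjusted p under 0.05). B6 T1 against B6 FO called none of them either (1.01% of all probe sets, 0 members at an unadjusted p under 0.05). The strain difference of Ptpn22 varied between labelled subsets by up to 3.17, with adjusted p = 0.0723 for the interaction, where again 0 of 13 were called (background 1.35%, 2 members at an unadjusted p under 0.05). Over 30 alternatives the interaction p for Ptpn22 ran from 0.00681, with the replicate block, to 0.25 and passed in 7, 2 of them without B6 T3 replicate 1 (0.0156) or 2 (0.034).

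Slc11a1 encodes a metal transporter of the phagosome membrane that governs resistance to some intracellular microbes. It stood out in 1 group: the NOD arrays labelled FO gave 2.23 and 1.75. The other 10 NOD arrays lay between -0.34 and 0.29. In B6 it ran from -0.38 in T2MZ to 0.50 in T3, except for 1 MZ array at 1.06, whose partner was at -0.33. B6 FO was at -0.01 and 0.16. Differences among the labelled NOD groups were called for Slc11a1 alone of the 13 (range of group means 2.21, adjusted p = 0.00761, limma F test), against 1.77% of all probe sets. That call was lost without NOD FO replicate 1 (adjusted p = 0.179). With the replicate block Ptpn22 was called among NOD groups too (adjusted p = 0.0207).

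NOD exceeded B6 in labelled FO by 1.91 ± 0.33 log2 units (limma, adjusted p = 0.00512). Without B6 FO replicate 1 the difference was 1.83 (adjusted p = 0.0504), without NOD FO replicate 1 it was 1.68 (adjusted p = 0.069), and with only the arrays compared adjusted p was 0.0753. In the other 5 labelled subsets it lay between -0.45 and 0.37 with no call. Over all subsets it was 0.17 ± 0.19 (adjusted p = 0.763) and turned to -0.05 without B6 replicate 1. The interaction gave a range of 2.37 and adjusted p = 0.0696, and over 30 alternatives that p ran from 0.00238 to 0.35 and passed in 7. It was 0.00238 and 0.00623 without B6 MZ replicate 1 or 2, and 0.0141 with the replicate block.

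Transcripts of macrophages moved with Slc11a1. The mean of 12 measured macrophage and monocyte genes (of 13 listed) was 2.20 and 2.11 in the NOD arrays labelled FO, 1.65 in B6 MZ replicate 2, and between -0.34 and 0.58 in the remaining 21 arrays. Complement genes were the highest in NOD FO, with C1qa at 3.39 and 3.41, C1qb at 3.56 and 3.65 and C1qc at 4.24 and 3.92. Csf1r, the receptor for the macrophage growth factor, was at 2.42 and 2.37, and Vcam1 at 2.95 and 2.53. In 10 of the 12 genes both NOD FO arrays exceeded the other 10 NOD arrays, as they did in 1.29% of all probe sets, and Lyz2 (0.10 and 0.48) and Cd14 (-0.06 and 0.26) were the exceptions. Slc11a1 followed the list mean with r = 0.94 over 24 arrays and 0.79 over 22 without NOD FO, a description over arrays that share pools. Those 22 include B6 MZ replicate 2, above the remaining 21 in both (1.06 and 1.65), and r without it was not computed. The part of macrophages in the Slc11a1 difference was not tested. Neutrophil genes stayed between -0.15 and 0.34 and dendritic cell genes between -0.19 and 0.19 in all 24 arrays.

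**Figure D3:**
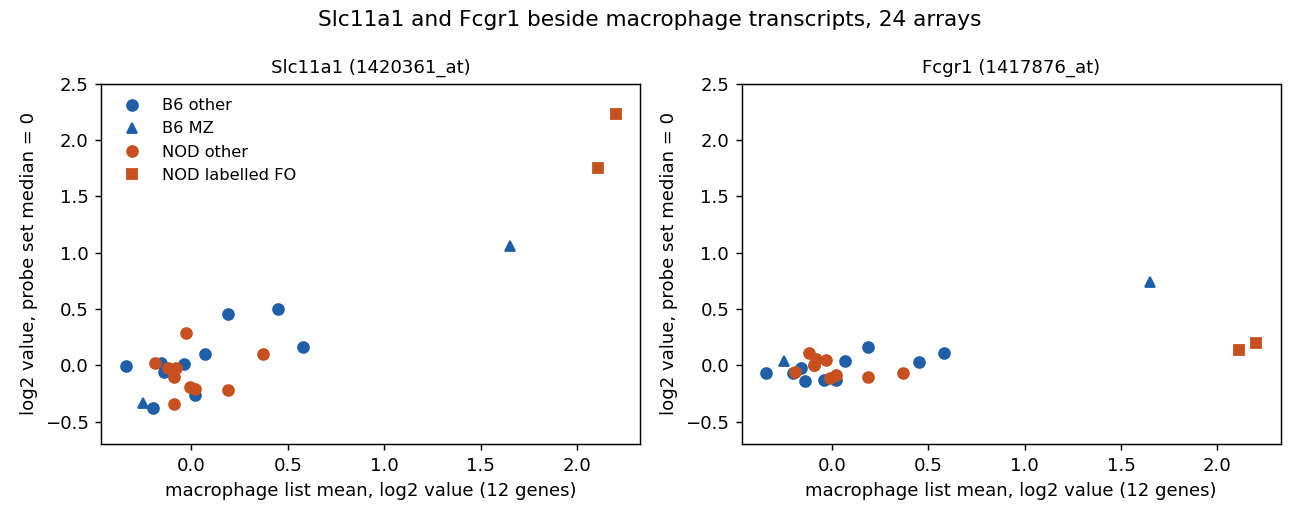
Each point is 1 of 24 arrays, with the mean centred log2 value of 12 macrophage genes on the horizontal axis. The vertical axis gives the centred log2 value of Slc11a1 (left) or Fcgr1 1417876_at (right). The NOD FO arrays and 1 B6 MZ array lie apart at the right, Slc11a1 being highest in NOD FO and this Fcgr1 probe set in that B6 MZ array.

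Fcgr1, the high-affinity receptor for IgG on macrophages and monocytes, was far nearer its midpoint than Slc11a1 in NOD FO. Its probe set 1417876_at was at 0.74 in B6 MZ replicate 2, at 0.20 and 0.14 in NOD FO, and between -0.14 and 0.16 elsewhere. The B6 MZ array with the macrophage transcripts was thus highest, and both NOD FO arrays lay just above the other 10 NOD arrays. For 1417876_at, the less variable Fcgr1 probe set, r with the macrophage list was 0.64 over 24 arrays and 0.81 over 22 without NOD FO. Those 22 include B6 MZ replicate 2, far above the rest in both, and r without that array was not computed. NOD was lower than B6 in MZ by 0.41 units (log2 difference -0.41 ± 0.18, adjusted p = 0.352), and without that array the difference was -0.05 (adjusted p = 0.98, limma). Without its partner, B6 MZ replicate 1, it was -0.76 and was called (adjusted p = 0.0225). The second probe set, 1436625_at, ran from -0.46 to 0.66 in B6 and from -0.26 to 0.35 in NOD, with its highest value in B6 T3 replicate 1. It was at -0.00 in B6 MZ replicate 2 and at 0.07 and 0.25 in NOD FO. Its r with the macrophage list was not computed. Over subsets the Fcgr1 differences were -0.04 ± 0.12 and 0.19 ± 0.13 (adjusted p = 0.936 and 0.549).

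Vav3 encodes a signalling protein that acts downstream of the antigen receptor. Probe set 1448600_s_at was higher in most B6 arrays. B6 T3 gave the highest values (1.07 and 1.45), B6 T2FO gave 0.14 and 1.17, B6 T1 -0.13 and 0.83, and B6 T2MZ 0.26 and 0.91. B6 FO (0.90 and -0.34) and B6 MZ (0.69 and -0.34) held 1 high and 1 low array each. The NOD arrays stayed between -0.74 (labelled T1) and 0.30 (labelled T2MZ). The ranges of the strains overlapped. Pool means were 0.49 and 0.61 in B6 and -0.23 and -0.21 in NOD.

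NOD was lower by 0.77 units on that scale (log2 difference -0.77 ± 0.10, 95% interval -1.03 to -0.51, limma adjusted p = 0.0393). The B6 pools follow the replicate numbers. With those of B6 FO and MZ crossed, the call was lost (adjusted p = 0.537), while 59 of all probe sets were called (limma). The mean of the 3 Vav3 probe sets gave -0.41 and was not called (adjusted p = 0.109). Probe set 1417122_at ran parallel to 1448600_s_at, with r = 0.90 over the 24 arrays, and its difference of -0.50 ± 0.16 was not called (adjusted p = 0.196). The third Vav3 probe set, 1417123_at, hardly varied (SD 0.16) and differed by 0.04 ± 0.09 (adjusted p = 0.905), so the 3 probe sets of the gene did not give 1 answer. Within labelled subsets 1448600_s_at was lowest in NOD relative to B6 in T3 (-1.66 ± 0.45, adjusted p = 0.0894), followed by T2FO (-1.07 ± 0.45, adjusted p = 0.307), and neither passed. The T3 difference did pass with quantile normalization (-1.77, adjusted p = 0.0248) and with the 5' control as a covariate (-1.06, adjusted p = 0.00641).

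The 5' control moved with the Vav3 signal. The 6 B6 arrays lowest in it had 1448600_s_at values of 0.69 to 1.45 (mean 0.99) and the other 6 of -0.34 to 1.07 (mean 0.11), with overlap from 1 T3 array. The correlation with the 5' minus 3' control was -0.82 over the 12 B6 arrays and 0.43 over the 12 NOD arrays. Without the 6 low arrays the strain difference was -0.33 (adjusted p = 0.219), and with the control as a covariate it was -0.37. Without NOD replicate 1 or 2 it was -0.76 and -0.78. In the covariate fit (5912 at an unadjusted p under 0.05, limma) and in both fits without a NOD pool 0 of all probe sets were called, so the lost call there says nothing about Vav3. The part of RNA quality in this call was not tested further.

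**Figure D4:**
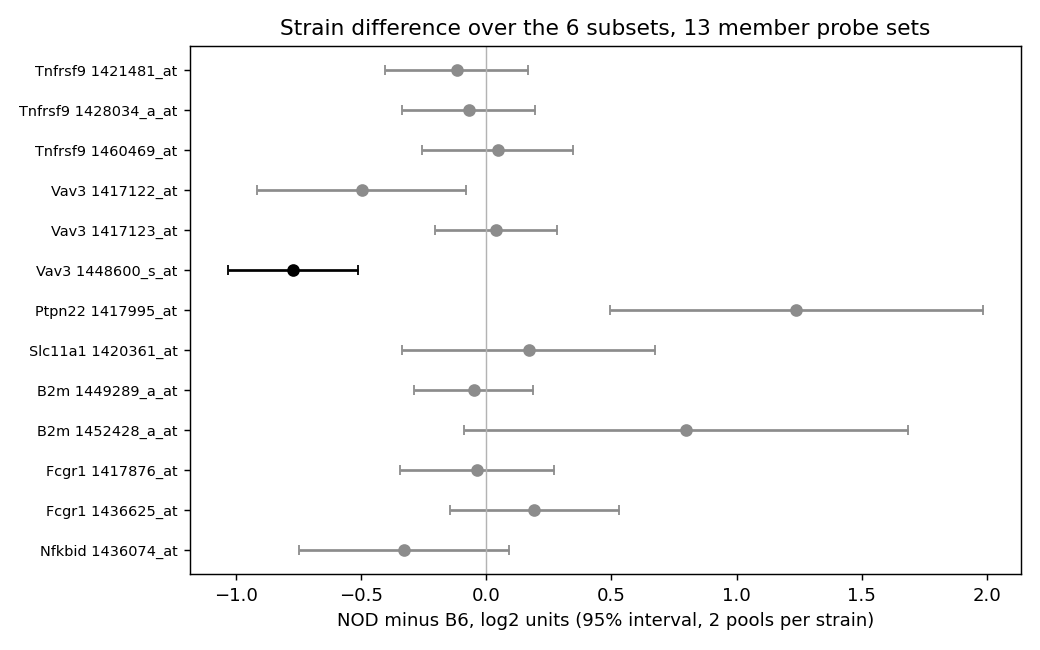
Points are NOD minus B6 differences in log2 units from 4 pool means and bars their 95% intervals, for the 13 probe sets, and black marks the one with an adjusted p under 0.05. Vav3 1448600_s_at (-0.77) is the black point, and Ptpn22 lies highest at 1.24 with a wide interval.

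B2m encodes the light chain of MHC class I, a protein that nearly every nucleated cell makes. Its 2 probe sets behaved apart. With 1449289_a_at all 24 arrays lay between -0.29 and 0.22 (SD 0.11, and 4.13% of all probe sets varied less), and NOD differed from B6 by -0.05 ± 0.09 (adjusted p = 0.87). With 1452428_a_at the SD was 0.79, and 6 B6 arrays lay between -2.35 and -1.02 while the other 6 B6 arrays lay between -0.16 and 0.25 and NOD between -0.54 and 0.38. Those 6 are the arrays lowest in the 5' control. They lay wholly below the other 6 in this probe set, as in 6.25% of all probe sets, with 6.35% wholly above. The mean difference within B6 was -1.71 and r with the 5' minus 3' control 0.93 (12 B6 arrays) and 0.74 (12 NOD arrays).

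NOD minus B6 in 1452428_a_at was 0.80 ± 0.33 (adjusted p = 0.313), 1.27 without B6 replicate 1 (called, adjusted p = 0.0201), and -0.06 without the 6 low arrays (adjusted p = 0.742, limma). In the 12 B6 arrays the 2 B2m probe sets correlated at -0.06. No strain or subset difference of B2m was called in the fits over all arrays.

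**Figure D5:**
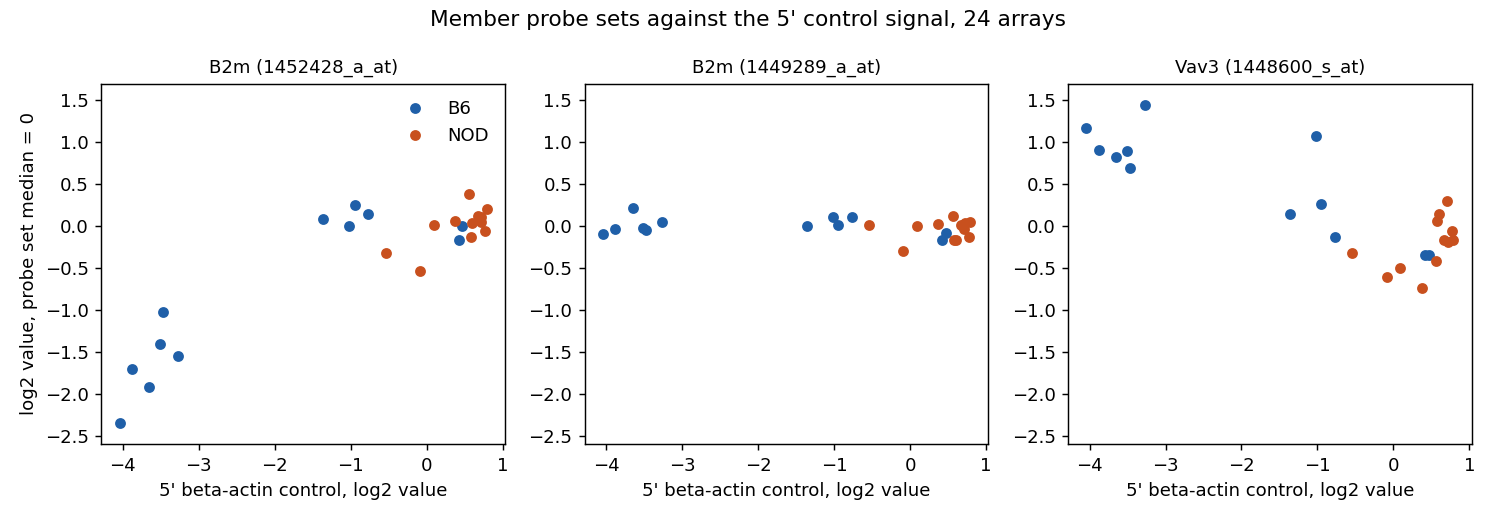
Each point is 1 of 24 arrays, with the 5' beta-actin control on the horizontal axis and a probe set of B2m or Vav3 on the vertical axis, both as centred log2 values. The 6 low B6 arrays lie near -4 on the horizontal axis, where B2m 1452428_a_at is low, B2m 1449289_a_at is level and Vav3 1448600_s_at is high.

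Nfkbid encodes a nuclear inhibitor-like protein that modulates NF-kB and that marginal zone B cells are known to need. Its values scattered within groups. B6 MZ gave 1.17 and -1.30, B6 FO 0.61 and -0.78, NOD FO -1.11 and 0.59, and NOD T1 0.32 and -0.97. In B6 MZ the 2 arrays lay farther apart than any 2 group means, and the strain difference of -0.33 ± 0.16 was not called (adjusted p = 0.38). In B6 the 6 arrays lowest in the 5' control averaged 0.55 and the others -0.35 (r = -0.81 over 12), and without those 6 the strain difference was 0.12.

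Tnfrsf9 encodes a costimulatory receptor of the tumour necrosis factor receptor family, induced on activated T cells. Its 3 probe sets had SDs of 0.15, 0.16 and 0.15, where the median over all probe sets was 0.26. Over all arrays and probe sets values lay between -0.34 and 0.40. Strain differences were -0.12 ± 0.11, -0.07 ± 0.10 and 0.05 ± 0.11 (adjusted p = 0.687, 0.823 and 0.913). Without the 6 B6 arrays lowest in the 5' control, 1421481_at differed by -0.22 and was called (adjusted p = 0.0297), when 9786 of all probe sets were. T cell genes as a list stayed between -0.36 and 0.66. Without a level, a transcript that hardly varies cannot be told from one that is not made.

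Known partners of the members were read from lists. Over subsets 3.02% of all probe sets were called between strains. The counts below are not read as a property of the partners. Among B6 subsets 1.41% of all probe sets were called and among NOD groups 1.77%. Of 4 probe sets of the Tnfrsf9 ligand and adaptors (Tnfsf9, Traf1, Traf2) none differed between strains over subsets, but Traf1 1423602_at varied among B6 subsets (adjusted p = 5.32e-05) and NOD groups (adjusted p = 0.000105, limma F tests). None of 5 for Vav1 and Vav2, none of 11 for the Ptpn22 partners, none of 8 for the Fcgr1 partners and none of 18 for the NF-kB genes beside Nfkbid was called between strains. The Fc receptor chain Fcer1g varied among NOD groups (adjusted p = 0.00877) and the inhibitor Nfkbia among B6 subsets (1438157_s_at, adjusted p = 0.0409, limma F tests). The other Nfkbia probe sets were not called among B6 subsets (limma F tests, adjusted p from 0.326 to 0.914). Slc11a2, the closest relative of Slc11a1, was called lower in NOD in 1 of 4 probe sets (-0.86 ± 0.12, limma adjusted p = 0.0469). Its other probe sets gave 0.10, -0.38 and 0.17 and were not called. Of 20 probe sets for B2m partners, only Tapbp, a peptide-loading protein, was called (1450378_at, 1.47 ± 0.18, adjusted p = 0.0393), and another Tapbp probe set gave -0.80 (adjusted p = 0.175).

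Other candidates of NOD regions gave 3 calls over subsets among 74 probe sets of 33 measured genes (35 listed), near the 3.02% of all probe sets, with a median difference of 0.04 against -0.03. Il2ra, the interleukin 2 receptor alpha chain, was lower in NOD (1420692_at, -0.93 ± 0.09, adjusted p = 0.0267), but its other probe set, 1420691_at, gave -0.07 ± 0.16 (adjusted p = 0.899). H2-Aa, an MHC class II chain whose allele differs between the strains, was lower in 1443783_x_at (-3.14 ± 0.09, adjusted p = 0.00491) and higher in 1452431_s_at (2.37 ± 0.29, adjusted p = 0.0379). The direction for H2-Aa thus turned on the probe set. Among B6 subsets 2 probe sets were called, those of Sirpa and Il2ra (1.41% of all probe sets), and among NOD groups 4, of Sirpa, Mertk, H2-Ea and Dpp4 (1.77% of all). Mertk (adjusted p = 0.00135) is also in the macrophage list, with 1.50 and 1.95 in NOD FO.

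The genes whose profile over the 24 arrays was most like a member's were found by Pearson correlation, as a description over arrays that share pools. For Slc11a1 they were the macrophage receptors Cd163 (r = 0.948) and Treml4 (0.947). For Ptpn22 they were Top1 (0.899) and Inpp5f (0.895), for Vav3 4930428B01Rik (0.878) and Foxn3 (0.87), and for Nfkbid Klf9 (0.829) and Pcf11 (0.82). B2m 1452428_a_at was most like the ribosomal protein genes Rpl27 (0.956) and Rpl13a (0.95). For Tnfrsf9 1428034_a_at they were Gdap1 and Kndc1 (both 0.769), and for Fcgr1 1436625_at Cadm3 (0.852) and Vax2 (0.816).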

How the data were processed

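Total RNA of sorted B cells was amplified in a pair of cycles from the poly(A) end and hybridised to Mouse Genome arrays, per the labels' protocols. The authors deposited log2 values from RMA, a tool that the submitters' processing notes name. Its version and the log base are not given in the sources used here. The base was taken as 2. Every probe set was found centred on its median over the 24 arrays (largest median 5e-07 in size), so no level, signal over background or filter on dim probes could be had. The number of arrays limits the precision.

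Of 45101 probe sets, 64 controls were left out and 45037 tested with limma 3.58.1 in R 4.3.3, with Benjamini-Hochberg adjustment over all of them and 0.05 as the threshold. NOD against B6 over subsets used 4 pool means (2 residual degrees of freedom). Other tests used 1 mean per group over 12 groups (12 residual degrees of freedom). Replicates are labelled biological, from separate experiments. Arrays of 1 pool are not independent, which the group tests do not model. Taking pools from the replicate numbers, limma estimated 1 shared correlation of 0.112 within a pool. Deviations of B6 FO and MZ ran opposite to the other B6 subsets (-0.62 to -0.368), and these 4 subsets ran together (0.733 to 0.873). The value of 0.112 therefore does not describe the dependence among the B6 arrays. A difference is given with its standard error and a group mean with its SD.

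Members and lists were chosen with earlier results of these data known. Promoters and names came from RefSeq tables of GRCm38.p6. The named genes are all members, called genes of the other candidate list, and for each member the 2 genes most correlated with its most variable probe set. Called genes of the partner lists and genes of the marker lists were named after their values were seen. Scripts were tested on simulated data. Figures used matplotlib 3.10.9 in Python 3.11.15. Alternatives covered leaving out each replicate, quantile normalization, the probe set rule, robust variance, blocks on the replicate number or pool, the 5' control as a covariate, and the arrays fitted. Leaving out the T1 groups, and the most variable probe set of a gene in the group tests, were alternatives chosen after seeing the data.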

Additional observations from a re-analysis of the deposited data

Results flagged for a closer look

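For 4 of the 13 probe sets the arrays of the strains lay apart in opposite directions in different labelled subsets. The share of all probe sets that do so was not counted, and groups of 2 arrays separate easily. The count of 4 is therefore not read as a property of these genes. Ptpn22 differed, NOD minus B6, by 3.01 in T1 and -0.16 in MZ, a gap of 3.17 log2 units (interaction adjusted p = 0.0723, limma). Slc11a1 differed by 1.91 in FO and -0.45 in T2FO, a gap of 2.37 (adjusted p = 0.0696). Tnfrsf9 1428034_a_at differed by 0.06 in T3 and -0.24 in FO, a gap of 0.30, and B2m 1449289_a_at by 0.14 in MZ and -0.21 in T3, a gap of 0.35. For each of these 2 the interaction had an adjusted p of 1.00. None passed the threshold, and all rest on the NOD subset labels as given.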

How the results depend on the processing

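The 13 probe sets were refitted with limma under each alternative. Over subsets the 1 call became 0 to 3 when single pools were left out. It became 0 with the mean of a gene's probe sets, with the 5' control as a covariate, with the replicate block and with the FO and MZ numbers of B6 crossed, and 2 with 24 arrays taken as independent, with the pool as a random block or without the 6 B6 arrays lowest in the 5' control. In the covariate fit and without either NOD pool 0 of all 45037 probe sets were called (5120 to 5912 at an unadjusted p under 0.05, limma), so those losses bear on no gene. The fit without the 6 low arrays took 18 arrays as independent. With only the arrays compared, the calls in T1, T2FO and FO went from 1 each to 0, and those among NOD groups from 1 to 2. Quantile normalization gave 1 in T3, 2 in FO, 2 among NOD groups and 2 for the interaction. The covariate gave 1 in T3, 2 in FO, 2 among B6 subsets, 1 for B6 MZ against FO and 3 for the interaction. The random block gave 2 in FO, 1 among B6 subsets and 2 for the interaction. The mean of probe sets gave 2 for the interaction. The replicate block gave 2 in FO, 1 among B6 subsets, 1 for B6 MZ against FO, 2 among NOD groups and 2 for the interaction. Leaving out single arrays gave 0 to 1 in T2FO, FO and MZ, among B6 subsets, among NOD groups and for the interaction. T2MZ and B6 T1 against FO kept a count of 0. Totals over all probe sets (or genes) moved too, even with no single array left out. They went from 2844 to between 702 and 8352 in T1, and from 1162 to between 9 and 4302 in T2FO. In T3 774 became 11 to 3288, and in FO 1296 became 29 to 3594. Among B6 subsets 637 became 79 to 2989, and among NOD groups 797 became 463 to 1946. For the interaction 609 became 451 to 1723. Moved member counts are therefore not read as a property of these genes. The causes were not tested.

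Signs of some small strain differences turned. Without single pools Slc11a1 ran from -0.049 to 0.39, Fcgr1 1417876_at from -0.14 to 0.066, Tnfrsf9 1460469_at from -0.046 to 0.14 and Tnfrsf9 1428034_a_at from -0.14 to 0.0012. With the covariate Vav3 1417123_at was -0.042, Fcgr1 0.628 (1417876_at) and -0.56 (1436625_at), Tnfrsf9 0.048 (1421481_at) and -0.55 (1460469_at), and B2m 1452428_a_at -2.29. Without the 6 low B6 arrays Vav3 1417123_at was -0.069, Nfkbid 0.124, B2m 1452428_a_at -0.057 and Tnfrsf9 1460469_at -0.064. The count over all probe sets went from 1361 to between 0 and 9786 over subsets.

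Replicate numbers do not pair the strains. Deviations of same-numbered arrays correlated at 0.733 to 0.873 among B6 T1, T2FO, T3 and T2MZ, at -0.62 to -0.368 between these and B6 FO or MZ, and at -0.0418 to 0.507 within NOD. With the replicate block Vav3 1448600_s_at kept -0.77 with adjusted p = 0.106. The calls it added were those of Ptpn22 in FO, among B6 subsets, for B6 MZ against FO, among NOD groups (adjusted p = 0.0207) and for the interaction, where Slc11a1 was also added. A filter on dim probes, other background corrections and the slide as a block need values not used here, and the fit on the arrays compared is the same as the analysis for the interaction. Whether sequence differences between the strains under the probes touch any value was not tested.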

Other observations

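Plasma cell transcripts were highest in the NOD arrays labelled T2FO, where the mean of 5 listed genes was 1.80 and 2.37 against -1.38 to 1.09 in the other arrays. NK cell transcripts were at 1.00 in B6 T2FO replicate 2. Of the erythroid list 2 of 4 genes were measured.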
